A study of Mus musculus with 8 samples.

Results

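The proteins of the mitochondrial ribosome were followed here at the level of their mRNA, through the 78 genes whose symbol begins with Mrpl or Mrps and a number. They were picked by name out of 27179 genes in the table, with earlier results of these data known. Of the 78, 51 encode proteins of the large subunit, 26 encode proteins of the small subunit, and Mrps36 is now known as part of the 2-oxoglutarate dehydrogenase complex. The cells were splenic CD4+ T cells of 8-week-old C.Cg-Foxp3tm2Tch/J mice, so that every group carried the reporter allele at Foxp3. The animals were offspring of parents that drank either unspiked water (control offspring, Ctr) or water with 10 ppm CdCl2 around mating and through pregnancy (Cd offspring, Cd), with normal water after birth. Cells were analysed without stimulation (0 h) or after 16 h with beads that carry anti-CD3 and anti-CD28, which engage the T cell receptor and its main costimulator. Per the authors, cells were either lysed at once or stimulated, so no culture of 16 h without beads stands beside the stimulated cells. What is called stimulation below therefore includes 16 h of culture, and the effects of beads and culture cannot be told apart. Each of the 4 groups held 2 libraries, numbered 6 and 7. The labels tie no library to an animal, a litter or a sex, so the p-values measure only the spread between these libraries, part of which may be technical.

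Mitochondria carry ribosomes of their own, which translate the few proteins encoded in mitochondrial DNA, all of them subunits of the respiratory chain and ATP synthase. The ribosomal RNAs are transcribed from mitochondrial DNA, while every protein of the mitochondrial ribosome is encoded in the nucleus, made in the cytosol and imported. Some of these proteins have a bacterial counterpart and others are particular to mitochondria. A T cell that leaves quiescence is known to enlarge its mitochondrial mass and its respiratory capacity. In bulk RNA, fewer cells that express a gene and less RNA per cell cannot be told apart, and the level used here, reads scaled to transcript length and to the library's total (RPKM), is a share of each library's reads.

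The libraries held between 15542732 and 25486791 reads on genes, and the libraries of a group had a Pearson correlation of 0.983 to 0.990. T cell markers were high throughout, with the summed RPKM of 7 genes (Cd4, Cd28 and Lck among them) between 2701 and 2909 at 0 h and between 1780 and 1873 at 16 h. The B cell gene Ms4a1, the monocyte gene Cd14, and the globin genes Hba-a1 and Hba-a2 were listed at 0 in every library. Other markers of these cells were detected at low levels. The B cell receptor component Cd79a lay between 2.87 and 4.73 RPKM and rose with stimulation by 0.41 and 0.57 on the log2 scale in control and Cd offspring (adjusted p = 0.018 and 0.0041). A myeloid list of 5 genes summed to 0.899 to 2.45 RPKM, and the integrin Itgam in it, at most 1.85 RPKM, fell by 2.27 and 2.03. An erythroid list of 4 genes summed to 0.365 to 1.72 RPKM, nearly all of it Alas2, whose log2 difference of Cd against control in unstimulated cells was 1.01 and did not pass (adjusted p = 0.34). A list of 3 NK cell genes summed to 16.8 to 20.1 RPKM at 0 h and to 4.92 to 5.57 at 16 h. The CD8 T cell genes Cd8a and Cd8b1 summed to 9.52 to 11.8 RPKM over all libraries, and 1 of them lay below 1 RPKM in every library. A list of 4 regulatory T cell genes summed to 14.9 to 19.2 at 0 h and to 140 to 173 at 16 h, most of it Il2ra, which activated T cells also express. Of 5 sex-linked genes (Xist and the Y-linked Ddx3y, Eif2s3y, Kdm5d and Uty), 4 lay below 1 RPKM in every library. Eif2s3y and Kdm5d were listed at 0 throughout, so the libraries of every group lacked these Y-linked transcripts. The list summed to 49.3 to 67.1 RPKM. The part of these marker shifts in the results was not tested.

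All but 1 of the 78 members were measured above the floor of the test, a mean of 0.5 RPKM over the 8 libraries. The exception, Mrpl36, was listed at 0 in 6 libraries and had 1 read each in a stimulated control and an unstimulated Cd library. Transcript lengths ran from 407 to 6712 nucleotides with a median of 1054, and the genes lay on 17 chromosomes. Mean levels of the 77 tested members ran from 2.23 to 82.6 RPKM with a median of 21.1. Mrpl30, a large-subunit protein with a bacterial counterpart, had the highest mean at 82.6 RPKM, followed by Mrps21 of the small subunit at 67.0 and Mrpl33 of the large subunit at 57.5. The lowest were Mrps36 at 2.23 RPKM, Mrps25 of the small subunit at 3.88 and Mrpl17 of the large subunit at 4.46. The fewest reads behind any value of a tested member were 16, for Mrps36, and the median over members of the lowest read number was 292. The RefSeq span of 25 members overlaps that of another gene, and whether the counting used strand is not given in the sources used here.

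The question of the first comparison was what 16 h of stimulation did to these mRNAs in control offspring. Most of them rose, by less than 2-fold. Of the 77 members, 64 were higher at an adjusted p under 0.05 (limma, Benjamini-Hochberg over all 12605 genes tested) and 3 were lower, where 36.9% of all genes were higher and 27.8% lower. With a change over 2-fold and an adjusted p under 0.01 also required, which is how a gene is called in the comparisons of stimulation below, 17 members were called higher and 0 lower, against 11.5% and 7.17% of all genes. The 3 that were lower stood between log2 fold changes of -0.33 and -0.20. The median log2 fold change of the members was 0.66 and that of all genes tested was 0.07.

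The same rise was visible in each library. Reads on the members made up 0.151 to 0.163% of all reads on genes in the 4 unstimulated libraries and 0.245 to 0.250% in the 4 stimulated ones. The median member stood at 14.5 to 16.4 RPKM in unstimulated libraries and at 23.7 to 26.1 RPKM in stimulated ones. Neither range overlapped. The stimulated and unstimulated control libraries did not overlap for 69 members that were higher and 3 that were lower. Over all genes tested the same held for 46.0% upwards and 37.2% downwards. Calls by the stricter rule, as above, were 11.5% and 7.17% of all genes tested. The levels of the members also stood closer together after stimulation. The SD of the log2 level over members was 1.03 to 1.10 in unstimulated libraries and 0.937 to 0.962 in stimulated libraries. The same SD was not taken over all genes, so the narrowing is not shown to be particular to the members.

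**Figure D1:**
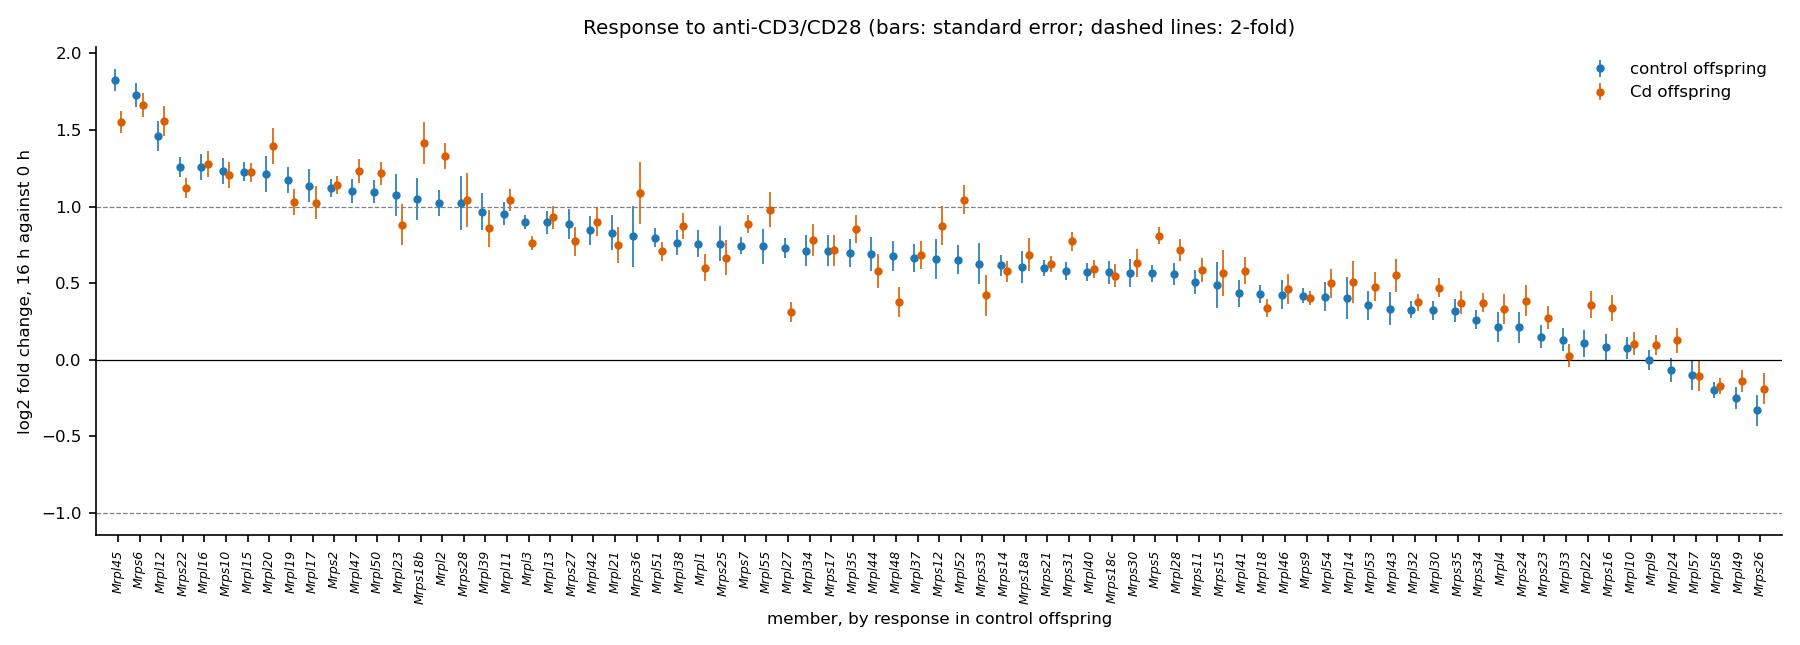
Log2 fold change of 16 h against 0 h for the 77 tested members (vertical axis), ordered by the value in control offspring, with blue points for control and orange points for Cd offspring and bars for the standard error. The points run from 1.83 for Mrpl45 down to -0.33 for Mrps26 in control offspring, and 71 of 77 lie above 0.

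Mrpl45, which in the large subunit faces the inner membrane where the nascent chain leaves the ribosome, rose most. Its level was 7.46 and 6.81 RPKM in the unstimulated and 25.6 and 25.5 RPKM in the stimulated control libraries. The stimulated libraries lay more than 3-fold above the unstimulated ones (3.55-fold, log2 fold change 1.83 ± 0.07 (SE), adjusted p = 8.8e-07). Mrps6, a small-subunit protein with a bacterial counterpart, went from 15.3 and 13.2 RPKM to 47.9 and 47.0 RPKM. That was a log2 fold change of 1.73 ± 0.08 (adjusted p = 1.7e-06). The gene of the inositol transporter Slc5a3 overlaps the span of Mrps6 on chromosome 16. Slc5a3 itself went up with stimulation by 1.90 on the log2 scale in control and by 1.53 in Cd offspring, and the part of shared reads in the value of Mrps6 was not tested.

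Mrpl12, which forms the stalk of the large subunit to which translation factors bind, rose from 15.2 and 13.6 RPKM to 37.7 and 42.1 RPKM, a log2 fold change of 1.46 ± 0.10 (adjusted p = 1.0e-05). Mrps22, a small-subunit protein particular to mitochondria, rose from 10.7 and 10.6 RPKM to 25.6 and 25.8 RPKM (log2 fold change 1.26 ± 0.07, adjusted p = 2.9e-06). For both genes the distance between the states was many times that between the libraries of a state. Mrpl16, Mrps10, Mrpl15 and Mrpl20, each with a bacterial counterpart, rose by 1.26, 1.23, 1.23 and 1.21 on the log2 scale. Mrpl15, for example, stood at 8.25 and 7.96 RPKM before and at 19.3 and 19.0 RPKM after stimulation (adjusted p = 2.4e-06). The other 9 members called higher were Mrpl19, Mrpl17, Mrps2, Mrpl47, Mrpl50, Mrpl23, Mrps18b, Mrpl2 and Mrps28.

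Other members had a small change in either direction or a fall. Mrpl58, a peptidyl-tRNA hydrolase that is built into the large subunit, was at 44.9 and 43.8 RPKM without stimulation and at 37.6 and 39.7 RPKM with it. The groups did not overlap, and the fall was small (log2 fold change -0.20 ± 0.05, adjusted p = 0.011). Mrpl49 of the large subunit fell by 0.25 ± 0.07 on the log2 scale (adjusted p = 0.017), and Mrps26 of the small subunit fell by 0.33 ± 0.10 (adjusted p = 0.020). All 3 are particular to mitochondria. For 10 members neither direction passed, namely Mrpl4, Mrpl9, Mrpl10, Mrpl22, Mrpl24, Mrpl33, Mrpl57, Mrps16, Mrps23 and Mrps24. Mrpl9 stood at 42.4 and 39.0 RPKM without and at 41.5 and 39.8 RPKM with stimulation, and the 95% interval of its log2 fold change was -0.16 to 0.15. Mrpl24, which lies at the exit of the nascent chain, was at 63.0 and 56.4 RPKM and then at 55.5 and 58.5 RPKM, with an interval of -0.25 to 0.12. The libraries of both states overlapped for both genes.

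**Figure D2:**
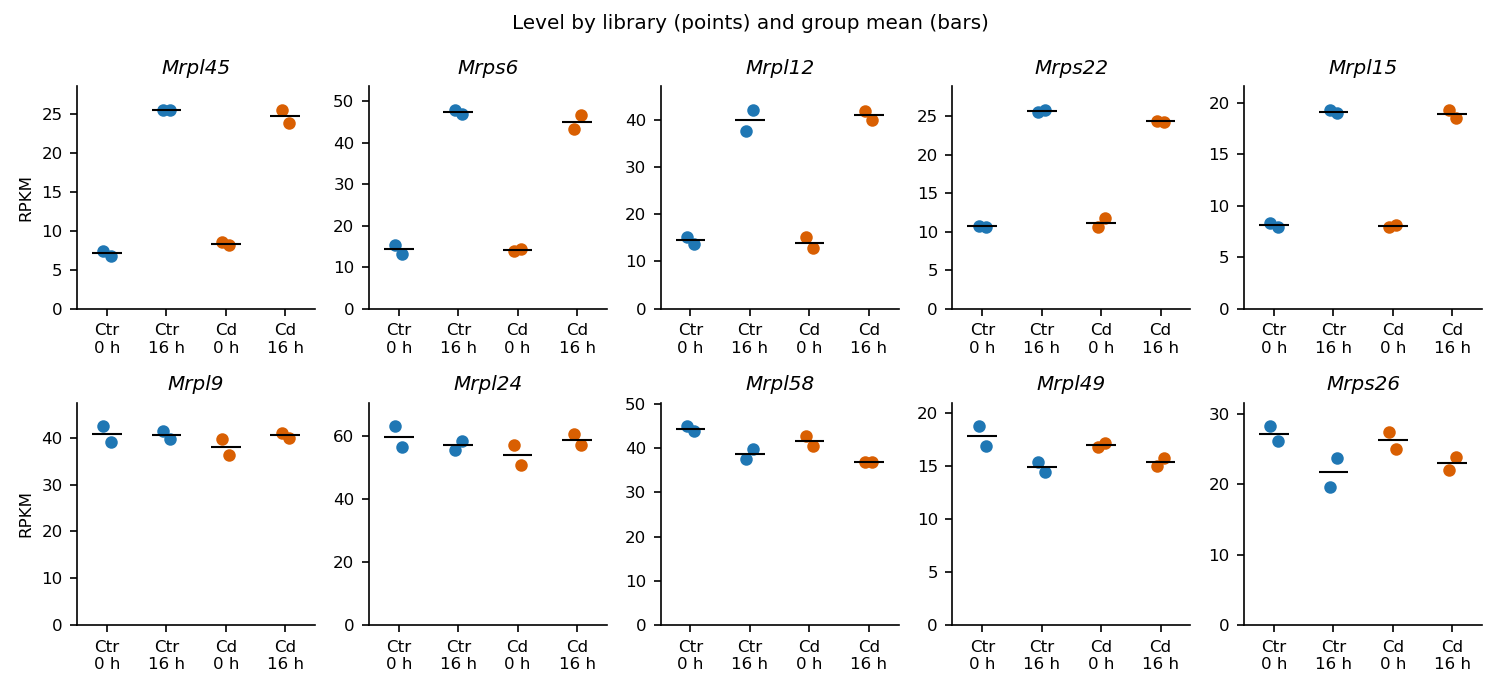
RPKM of 10 members (vertical axes, from 0) in each of the 8 libraries (points, blue for control and orange for Cd offspring) with the mean of each group (bars), at 0 h and 16 h. Mrpl45, Mrps6, Mrpl12, Mrps22 and Mrpl15 stand higher at 16 h in both kinds of offspring, Mrpl9 and Mrpl24 overlap between the states of control offspring, and Mrpl58, Mrpl49 and Mrps26 stand slightly lower at 16 h.

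The classes of ribosomal proteins had medians close to each other. In control offspring the median log2 fold change was 0.74 over 29 large-subunit proteins with a bacterial counterpart, of which 9 were called higher. It was 0.61 over 21 large-subunit proteins particular to mitochondria, of which 2 were called higher. The small subunit gave a median of 0.61 over 16 proteins with a bacterial counterpart (4 called higher) and of 0.60 over 10 proteins particular to mitochondria (2 called higher). The first class ran from a lower quartile of 0.33 to an upper quartile of 1.07, a wider span than the distance between the class medians. Over all genes tested, 11.5% were called higher. The 2 calls among 21 large-subunit proteins particular to mitochondria stood near that share. The 2 calls among 10 small-subunit proteins particular to mitochondria are too few to be set above it. The calls of the classes with a bacterial counterpart stood above it. No test was made between the classes.

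Members with a low level at rest tended to have a larger response. To keep the measures on separate libraries, the unstimulated level in Cd offspring was set against the response in control offspring, and over the 77 members Pearson's r was -0.46 and Spearman's rho -0.54. Over all 12605 genes tested r was -0.21 for the same pairing. With the unstimulated level in control offspring against the response in Cd offspring, r over the members was -0.38 and rho -0.44. Transcript length went with the response over the members at r = 0.22 in control and 0.13 in Cd offspring. These correlations are across genes, which share their libraries and are not independent replicates.

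The sequence before the start site is shown for the pair of members with the largest rise, Mrpl45 and Mrps6, and for the pair with the smallest change, Mrpl9 and Mrpl24, so that the starts of strong and flat responders can be read side by side. Each is the stretch of 250 bases that ends at the base before the start, 5′ to 3′, from RefSeq on GRCm38.p6, in lower case with any match to the motifs searched in capitals.
Mrpl45 (chr11:97315466-97315715, + strand): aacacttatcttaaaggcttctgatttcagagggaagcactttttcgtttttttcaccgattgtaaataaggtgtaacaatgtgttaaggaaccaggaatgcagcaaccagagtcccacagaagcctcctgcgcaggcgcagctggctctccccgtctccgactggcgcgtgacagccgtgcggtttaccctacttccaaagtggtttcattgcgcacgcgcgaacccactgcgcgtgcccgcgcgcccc
Mrps6 (chr16:92058086-92058335, + strand): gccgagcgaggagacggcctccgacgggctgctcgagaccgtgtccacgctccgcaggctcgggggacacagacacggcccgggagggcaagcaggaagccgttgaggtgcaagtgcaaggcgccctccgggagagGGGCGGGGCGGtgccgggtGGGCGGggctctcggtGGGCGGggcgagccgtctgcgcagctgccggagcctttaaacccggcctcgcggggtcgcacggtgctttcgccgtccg
Mrpl9 (chr3:94443086-94443335, + strand): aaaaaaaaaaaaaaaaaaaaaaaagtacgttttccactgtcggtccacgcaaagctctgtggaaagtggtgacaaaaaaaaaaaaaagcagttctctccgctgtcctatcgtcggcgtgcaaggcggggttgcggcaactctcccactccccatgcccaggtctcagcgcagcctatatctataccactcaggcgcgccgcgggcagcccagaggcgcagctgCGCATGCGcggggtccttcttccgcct
Mrpl24 (chr3:87919294-87919543, + strand): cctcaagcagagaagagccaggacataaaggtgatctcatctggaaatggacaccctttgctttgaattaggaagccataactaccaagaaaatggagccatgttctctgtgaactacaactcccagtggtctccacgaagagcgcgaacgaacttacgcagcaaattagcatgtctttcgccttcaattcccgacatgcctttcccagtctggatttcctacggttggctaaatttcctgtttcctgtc

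The motifs were searched on both strands, and those searched were NRF1 (CGCATGCG), ETS (CCGGAAGT), the E-box (CACGTG), YY1 (AAGATGGCG) and the GC box (GGGCGG). In these stretches Mrps6 held 4 matches to the GC box, the first pair of which overlap, and Mrpl9 held 1 match to the NRF1 motif, 27 bases before the start. None of these exact letters occurred in the stretches of Mrpl45 and Mrpl24, which says nothing of the factors themselves. The RefSeq span of Slc5a3, from base 92058322 of chromosome 16, overlaps the last bases of the Mrps6 stretch. That stretch is therefore not particular to Mrps6. The promoter table has an entry for 69 of the 78 members, each window reaching 250 bases before and 50 after the start. A gene was counted once, whichever of its starts held the motif. The NRF1 motif occurred in 10.1% of the members with an entry, in 4.59% of the tested genes with an entry and in 2.07% of all genes in the table. The ETS motif occurred in 17.4%, 9.94% and 4.31% of the same sets in the same order, and the YY1 motif in 11.6%, 3.89% and 1.64%. The E-box occurred in 7.25%, 12.0% and 8.09%, and the GC box in 49.3%, 68.1% and 38.2%. Among the 14 called members with an entry, 2 held the NRF1 motif, 1 the ETS motif, 2 the E-box, 0 the YY1 motif and 6 the GC box. Among the 54 with an entry that were tested and not called, the numbers were 5, 11, 2, 7 and 28.

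The fold changes of the same comparison in Cd offspring rest on 4 other libraries. The estimate of a gene's spread comes from all 8 libraries, so the p-values of both comparisons share it. Most members rose there too. Of the 77, 69 were higher at an adjusted p under 0.05 and 1 was lower, where 36.5% of all genes were higher and 29.4% lower. Over 2-fold and at an adjusted p under 0.01, 19 members were called higher and 0 lower, against 11.4% and 7.24% of all genes. The median log2 fold change of the members was 0.68 and that of all genes 0.05. The 1 member that was lower was Mrpl58, which went from 42.7 and 40.5 RPKM to 36.9 and 36.9 RPKM (log2 fold change -0.17 ± 0.05, adjusted p = 0.019). Mrpl49 and Mrps26 had values of -0.14 ± 0.07 and -0.19 ± 0.10 and did not pass (adjusted p = 0.13 for both).

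Mrps6 rose most in Cd offspring, from 13.8 and 14.4 RPKM to 43.3 and 46.7 RPKM (log2 fold change 1.67 ± 0.08, adjusted p = 2.1e-06). Mrpl12 rose by 1.56 ± 0.10 and Mrpl45 by 1.55 ± 0.07 on the log2 scale. Mrpl45 went from 8.58 and 8.13 RPKM to 25.5 and 23.9 RPKM. Mrps18b, counted here among the small-subunit proteins particular to mitochondria although it is a distant relative of a bacterial protein, went from 9.83 and 7.35 RPKM to 24.4 and 21.3 RPKM (log2 fold change 1.41 ± 0.14). Mrpl20 and Mrpl16 rose by 1.40 and 1.28 on that scale. Mrpl2, which lies near the peptidyl transferase centre, rose from 15.7 and 14.5 RPKM to 36.7 and 39.4 RPKM (1.33 ± 0.08), and Mrpl47 rose by 1.23.

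Of the members called higher, 16 were called in both kinds of offspring, which is 94.1% of the calls in control and 84.2% of those in Cd offspring. Mrpl23 was called only in control offspring, and Mrpl11, Mrpl52 and Mrps36 only in Cd offspring. All 4 were higher at an adjusted p under 0.01 in both, and stood below the 2-fold limit in the offspring where they were not called. None of these differences between offspring passed the test of the interaction. The log2 fold changes in control and Cd offspring, which share no library, had a Pearson's r of 0.94 and a Spearman's rho of 0.91 over the 77 members, and for 72 of them the values lay within 0.3 of each other. Over all genes tested r was 0.91. The overlap of calls and the number within 0.3 were not taken over all genes. This likeness between the offspring is therefore not shown to be particular to the members.

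**Figure D3:**
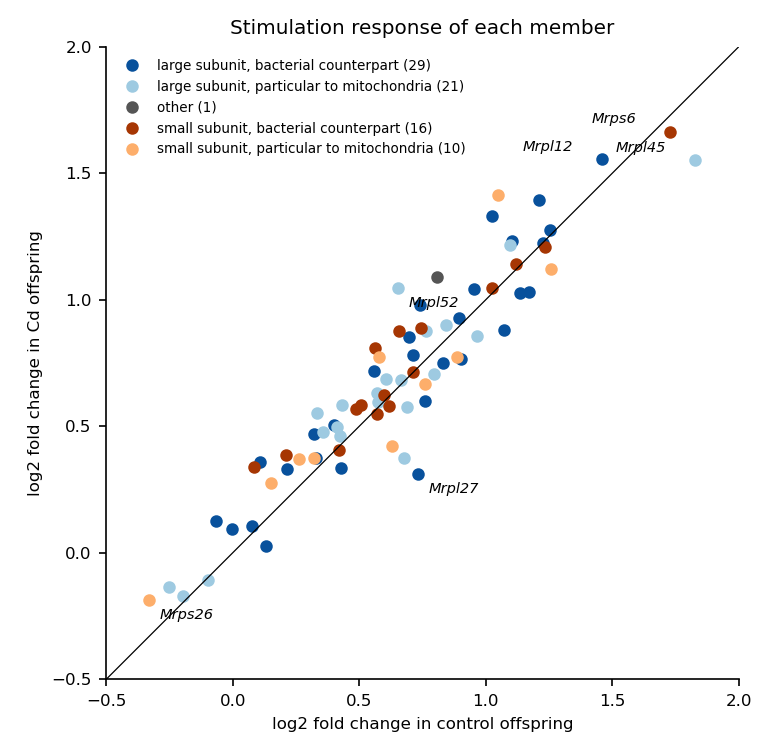
Log2 fold change with stimulation in control (horizontal axis) and Cd offspring (vertical axis) for the 77 tested members, coloured by subunit and by whether a bacterial counterpart exists, with the line of equality. The members lie along the line, with Mrpl27 below it (0.73 and 0.31) and Mrpl52 above it (0.65 and 1.05).

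Whether exposure of the parents changed these mRNAs was asked in each state. In unstimulated cells no member passed. The 77 log2 fold changes of Cd against control ran from -0.38 to 0.28, with 57 below 0 and 20 above, a median of -0.06 and a median over all genes of 0.01. At an adjusted p under 0.05 (limma), 0 members were called, where 113 genes or 0.896% of all were. At an unadjusted p under 0.05, 2 members were higher and 7 lower, which is 11.7% of the members and stands beside 13.9% of all genes. A count-based fit, limma voom on recovered reads, also called 0 members and 211 genes in all. It had 5 members at an unadjusted p under 0.05, which is 6.49% of the members beside 14.5% of all genes. The 95% interval lay within 1.5-fold in either direction for 75 members and within 2-fold for all 77, the former being true of 73.1% of all genes.

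The lowest p upwards belonged to Mrpl27, which sits close to the peptidyl transferase centre. Its level was 10.4 and 11.3 RPKM in control and 13.2 and 13.3 RPKM in Cd offspring, without overlap, for a log2 difference of 0.28 (95% interval 0.13 to 0.43, adjusted p = 0.13). Mrpl45 had a value of 0.23 (adjusted p = 0.24) and Mrpl3, a core protein of the large subunit, of 0.07 (adjusted p = 0.52). Downwards, Mrpl52 stood at 46.6 and 39.2 RPKM in control and at 34.6 and 31.2 RPKM in Cd offspring (log2 difference -0.38, interval -0.60 to -0.16, adjusted p = 0.16). Mrpl2 gave -0.34 (adjusted p = 0.16) and Mrpl28 gave -0.26 (adjusted p = 0.19). Over the members, transcript length went with this difference at r = 0.34, the shorter transcripts tending to the lower values, and its part in the result was not tested.

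In stimulated cells, again, no member passed. The log2 differences ran from -0.19 to 0.26 with a median of -0.01, 36 of them above 0 and 41 below. With limma, 0 members were called and 0 had an unadjusted p under 0.05, and the same held with voom. Over all genes 0% were called, so the absence of calls is not particular to the members. The interval lay within 1.5-fold for 76 of the 77 members, and the exception was Mrps36, which had the fewest reads. Mrps5 of the small subunit had the lowest p upwards, with 23.6 and 25 RPKM in control and 26.1 and 25.3 RPKM in Cd offspring (log2 difference 0.08, interval -0.05 to 0.21). Mrpl35 and Mrpl38 followed with 0.13 and 0.11. Downwards the values were -0.14 for Mrpl27, -0.19 for Mrpl48 and -0.07 for Mrpl3.

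**Figure D4:**
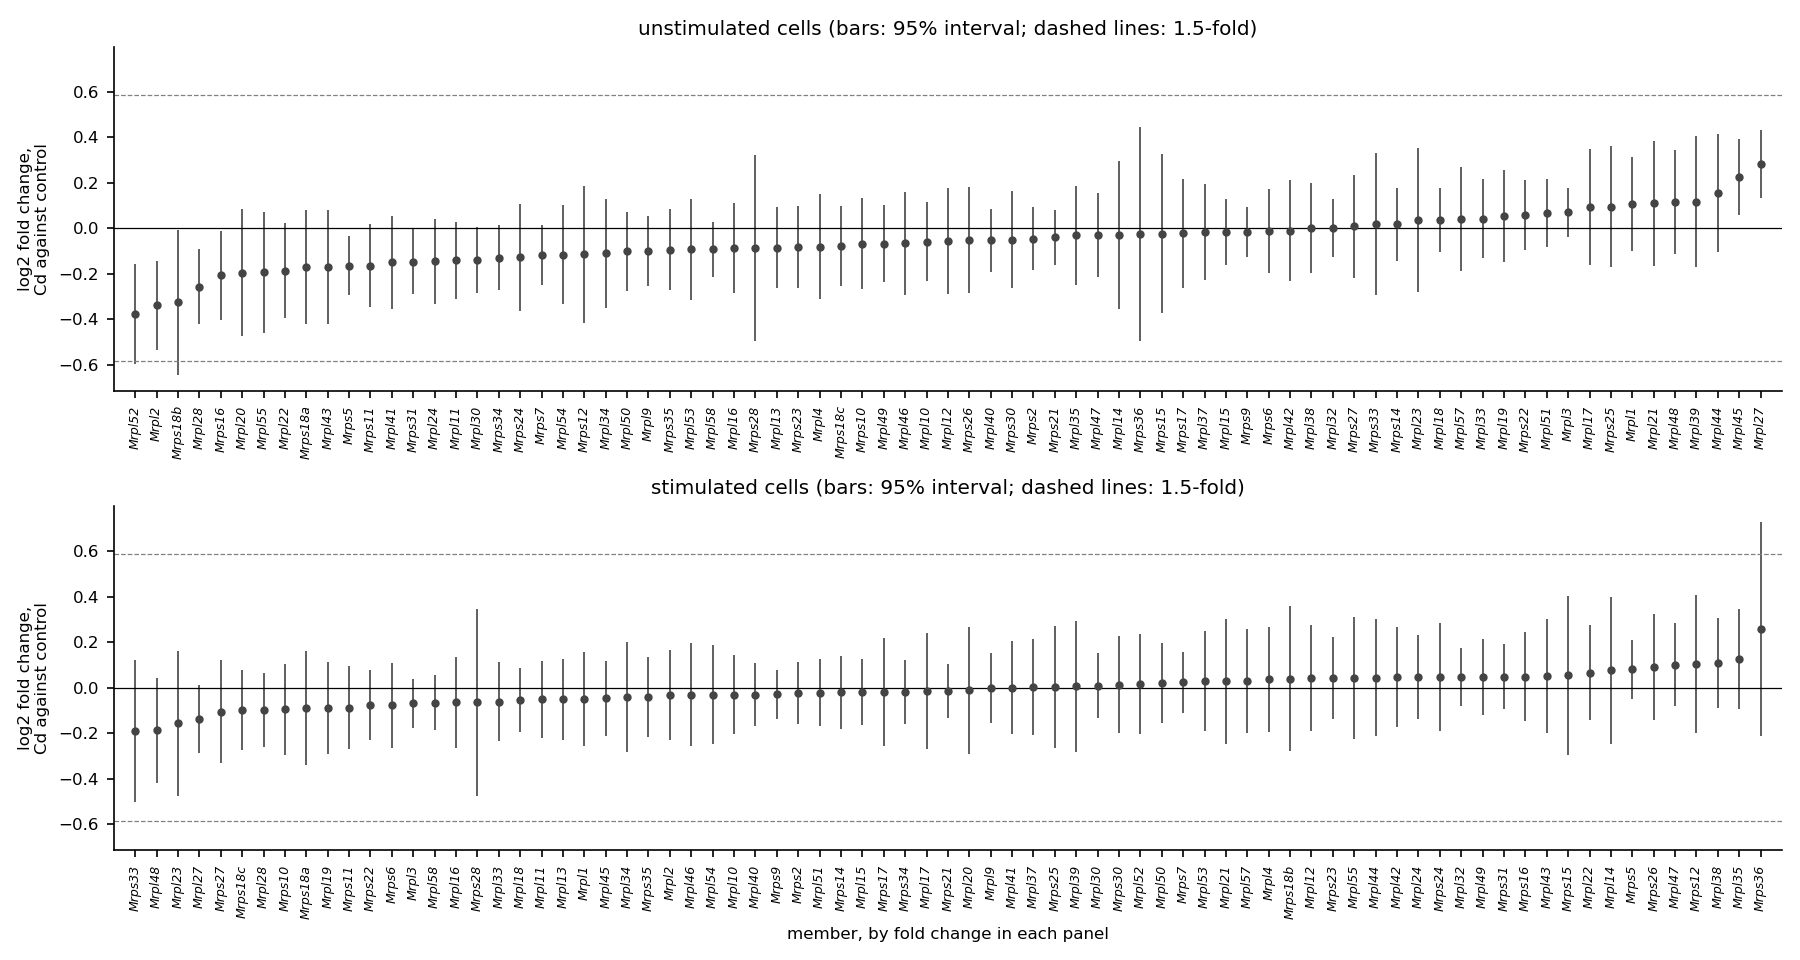
Log2 fold change of Cd against control offspring for the 77 tested members in unstimulated (top) and stimulated cells (bottom), ordered within each panel, with bars for the 95% interval and dashed lines at 1.5-fold. The intervals stay within the dashed lines for 75 members in the top and 76 in the bottom panel.

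The difference in response between Cd and control offspring was tested directly as an interaction. For the members it ran from -0.42 to 0.39 on the log2 scale, with 52 values above 0, 25 below and a median of 0.06. With limma 0 members were called, where 45 genes or 0.357% of all were, and the lowest adjusted p among members was 0.17. At an unadjusted p under 0.05 there were 3 higher and 2 lower members with limma, which is 6.49% of the members beside 10.6% of all genes. The numbers of members were the same with voom, beside 11.5% of all genes, and voom called 0 members and 112 genes in all. Mrpl27 had the largest value downwards. It rose by 0.73 in control and by 0.31 in Cd offspring, an interaction of -0.42 ± 0.09 (interval -0.63 to -0.21, adjusted p = 0.17). Mrpl45 (-0.27) and Mrpl48 (-0.30) had the next lowest p downwards. Upwards the values were 0.25 for Mrps5, 0.39 for Mrpl52 and 0.31 for Mrpl2. These 3 comparisons share libraries, so the values of 1 gene in them are not separate evidence. The interval lay within 2-fold for all 77 members and within 1.5-fold for 67.

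Proteins of the mitochondrial ribosome with other names also rose for the most part. Dap3, Ptcd3, Chchd1, Aurkaip1 and Gadd45gip1 had a median response of 0.45 in control and 0.50 in Cd offspring. Of the 5, 4 and 5 were higher at an adjusted p under 0.05, where 36.9% and 36.5% of all genes were. Chchd1 of the small subunit changed most, by 0.93 ± 0.07 in control offspring. None was called over 2-fold.

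Factors that assemble the mitochondrial ribosome or modify its RNA were more mixed. Of 26, 14 were higher and 1 lower at an adjusted p under 0.05 in control offspring, with a median of 0.25. In Cd offspring the numbers were also 14 and 1, with a median of 0.34. Over all genes tested, 36.9% were higher and 27.8% lower in control and 36.5% and 29.4% in Cd offspring. Fastkd2, an RNA-binding protein needed for the large subunit, rose from 5.95 and 6.49 RPKM to 15.5 and 15.3 RPKM in control offspring (log2 fold change 1.29 ± 0.07). The methyltransferase Mrm3 rose by 1.16 there and by 0.91 in Cd offspring, where it was not called. The pseudouridine synthase family member Rpusd4 fell by 0.34 in control offspring. Of 16 factors of mitochondrial translation 10 were higher and 0 lower in either kind of offspring, with medians of 0.42 and 0.42. In control offspring 5 of them were called over 2-fold and in Cd offspring 3, where 11.5% and 11.4% of all genes were called higher. The 5 called in control offspring were led there by Slirp (1.41) and Lrpprc (1.22), which together stabilise mitochondrial mRNA. The elongation factors Tufm (1.08), Gfm1 (1.04) and Tsfm (1.02) followed.

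Neither ribosomal RNA of mitochondria was higher after stimulation. The large ribosomal RNA of mitochondria, mt-Rnr2, stood at 2511 and 2144 RPKM in unstimulated and at 1342 and 1405 RPKM in stimulated control libraries, a log2 fold change of -0.76 ± 0.11 (adjusted p = 0.00050). In Cd offspring it fell by 0.85 (adjusted p = 0.00028). The small ribosomal RNA, mt-Rnr1, had values of -0.19 in control and -0.16 in Cd offspring and did not pass (adjusted p = 0.070 and 0.12). The libraries were made by capture of polyadenylated RNA, a method not meant to measure ribosomal RNA, and the part of the capture in these values was not tested.

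The respiratory chain and the cytosolic ribosome give a scale for these values. The 80 tested subunits of oxidative phosphorylation had a median response of 0.46 in control and 0.61 in Cd offspring, with 60 and 68 of them higher at an adjusted p under 0.05. Their median difference between Cd and control in unstimulated cells was -0.14, with 3 called lower, and their interaction had a median of 0.14, with 1 called higher. The 83 tested proteins of the cytosolic ribosome had a median of -0.22 in control offspring, with 7 higher and 39 lower, and of 0.38 in Cd offspring, with 51 higher and 7 lower. For the cytosolic ribosome the median difference between Cd and control in unstimulated cells was -0.48, and 28 of the 83 were called lower, whereas 0 of the 77 mitochondrial members were. The interaction of the cytosolic list had a median of 0.58, with 17 called higher. The corresponding medians of the mitochondrial members were -0.06 and 0.06. Over all genes tested, 36.9% were higher and 27.8% lower with stimulation in control and 36.5% and 29.4% in Cd offspring. In either direction, 0.896% of all genes were called for Cd against control in unstimulated cells and 0.357% in the interaction. No test was made between the lists.

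**Figure D5:**
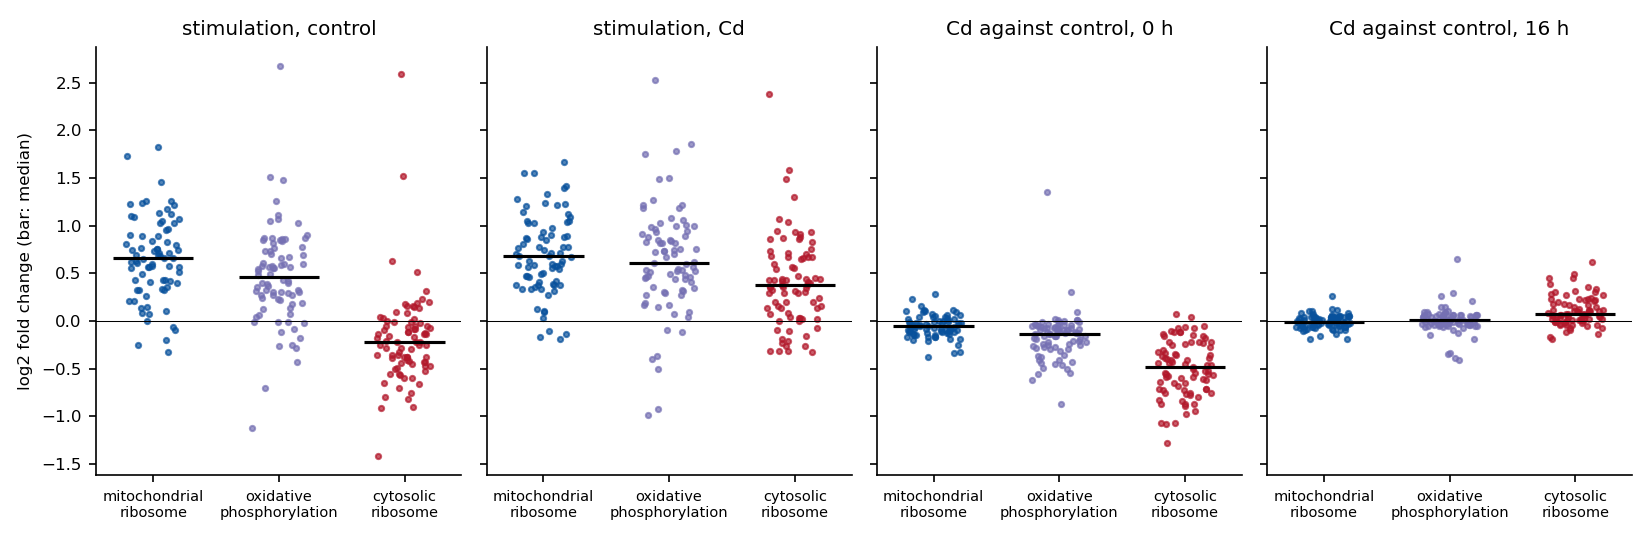
Log2 fold change of single genes (points) and their median (bars) for the mitochondrial ribosome (77 genes), oxidative phosphorylation (80) and the cytosolic ribosome (83) in 4 comparisons, with sideways scatter for legibility only. The mitochondrial ribosome has medians of 0.66 and 0.68 with stimulation and of -0.06 and -0.01 for Cd against control, where the cytosolic ribosome has -0.22, 0.38, -0.48 and 0.07.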

How the data were processed

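RNA of 8 libraries was sequenced after capture of polyadenylated RNA. Per the authors, Subread placed the reads on mm10 and featureCounts assigned them to RefSeq transcripts (versions, strand and multi-mapping are not given in the sources used here). The values deposited are log2 of RPKM plus 1, with an offset of 0.0001. They were turned back into RPKM. The design had assumed RPKM, and the test was kept. Whole reads per gene, transcript lengths and library totals (15542732 to 25486791) were recovered from the steps between values. Of 800 genes used to set the totals, 99.6% had a whole length within 0.002. Of 27179 genes, 25275 matched RefSeq by ID, including all 78 members.

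The 12605 genes with a mean of at least 0.5 RPKM were fitted with limma 3.58.1 in R 4.3.3 on log2(RPKM + 0.1). The fit had 4 group means and 4 residual degrees of freedom, with a trended prior and Benjamini-Hochberg adjustment over all genes tested. Fold changes are on the log2(RPKM + 0.1) scale, which understates changes of low genes. Stimulation was called at an adjusted p under 0.01 and over 2-fold, Cd and interaction at 0.05. The scripts were tested on simulated data.

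Members and lists were chosen with earlier results of these data known. The genes named were, in each comparison, up to 8 called members with the largest change in each direction, without overlap between groups and at a mean of at least 1 RPKM. Where a comparison called fewer than 3 members in a direction, the 3 with the lowest p were named as values. The highest and lowest expressed members and Mrpl15 were also named. Genes in the contrast lists, those outside the call and those named for their position in a plot were chosen after their values were seen. Alternatives were other pseudocounts, filters, scalings, a count-based fit (voom), a replicate block and leaving out each library.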

Additional observations from a re-analysis of the deposited data

How the results depend on the processing

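The median response of the members to stimulation in control offspring, 0.66 on the log2 scale, was 0.60 with a pseudocount of 1 RPKM, 0.58 with median-of-ratios scaling and 0.52 with quantile normalization. In Cd offspring, 0.68 became 0.66, 0.62 and 0.55 under the same settings. Quantile normalization moved the median of all genes in control offspring from 0.07 to -0.03 and the members called higher from 17 to 10. Pseudocounts of 0.5 and 1 RPKM gave 16 and 12 called higher there, and median-of-ratios scaling 13. In Cd offspring, 19 called higher became 15 and 14 with these pseudocounts, 14 with median-of-ratios scaling and 13 with quantile normalization. At an adjusted p under 0.05 and any fold, 64 members were higher and 3 lower in control offspring and 69 and 1 in Cd offspring. When each library was left out in turn, the median was 0.61 to 0.69 with 14 to 17 called higher in control offspring, and 0.65 to 0.72 with 14 to 20 called higher in Cd offspring. The median of Cd against control was -0.112 to -0.0203 in unstimulated and -0.03 to -0.01 in stimulated cells, and that of the interaction 0.0258 to 0.10, with 0 members called in each. No direction was turned for the results named. The deviations from the group means of libraries that share a number correlated at 0.063 and -0.044 within control and Cd offspring and at -0.0095 and -0.12 across exposure in unstimulated and stimulated cells, so the libraries were not treated as paired, and whether a number marks the same animal is not given in the labels. With a replicate block 17 and 19 members were called higher on stimulation and 0 in the other comparisons. A crossed block in stimulated cells, chosen after seeing the data, also called 0. With 2 libraries a group, a permutation of the labels of a single comparison cannot go below p = 0.333. Each p therefore rests on the model of the fit, which combines a gene's own spread within the groups with the spread shared across genes.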

Other observations

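Genes for the upkeep and transcription of mitochondrial DNA moved in both directions with stimulation. Of 9 tested, 5 were higher and 1 lower at an adjusted p under 0.05 (limma) in control offspring, with the same numbers in Cd offspring. Over all genes tested, 36.9% were higher and 27.8% lower in control and 36.5% and 29.4% in Cd offspring. The topoisomerase Top1mt rose from 4.28 and 4.34 RPKM to 14.2 and 14.2 RPKM in control offspring (log2 fold change 1.70 ± 0.09, adjusted p = 3.1e-06) and by 1.56 on the log2 scale in Cd offspring. Polg2, the accessory subunit of the mitochondrial DNA polymerase, fell from 17.7 and 20.2 RPKM to 8.98 and 10.8 RPKM in control offspring (log2 fold change -0.94 ± 0.10), while the catalytic subunit Polg had overlapping values of 26.9 to 29.1 RPKM.

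Among 10 regulators of nuclear genes for mitochondria, 9 were tested, and 4 were higher and 2 lower at an adjusted p under 0.05 in control offspring. These counts stood near the shares of all genes tested, 36.9% higher and 27.8% lower. The median log2 fold change of the list was 0.10, beside 0.07 over all genes. Myc, a transcription factor known to drive growth of activated T cells, rose from 35.9 and 32.3 RPKM to 198 and 187 RPKM (log2 fold change 2.49 ± 0.11). The coactivator Pprc1 rose by 1.37 ± 0.07. Nrf1 had a log2 fold change of -0.19 ± 0.07 (adjusted p = 0.038), and Ppargc1a lay below the floor of the test, with at most 0.066 RPKM in any library. In Cd against control no gene of either list was called in either state, where 0.896% of all genes were in unstimulated and 0% in stimulated cells.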
